A study of Mus musculus with 21 samples.

Results

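Cytosolic ribosomal protein genes encode the proteins of the large and the small subunit of the ribosome that translates nuclear mRNAs. Members were the mouse genes whose symbols have the form Rpl or Rps plus a number, with an optional paralogue letter, or are Rplp0, Rplp1, Rplp2 or Rpsa, without -ps pseudogenes and without the S6 kinases. Of 87 genes that matched in the deposited table of 26852 genes, 84 had a mean of at least 3.3 over all 21 libraries, the level required of every gene, and were among the 12980 genes tested. The large subunit had 49 members and the small subunit 35, and 81 of the 84 were annotated as protein coding. The members nearest to that level on the upper side were Rpl39l (4.04) and the processed pseudogene Rps3a2 (4.28), and those under it were Rpl6l (2.90), Rps3a3 (1.5) and Rpl3l (0.47).

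The libraries came from mesenchymal cells with low Nestin-GFP (Nes-low) of the bone marrow of NSG mice that were 8 to 12 weeks old at transplantation, as source and title state, although the extraction protocol speaks of CD31-positive endothelial cells. Mice that received no leukemia cells gave 3 ctrl libraries. Unconditioned mice that carried the human acute myeloid leukemia lines HL60 or ML1, which release a cell-penetrating mCherry (ch), gave 6 early libraries of cells that had taken up the label (ch+), 6 early libraries of cells that had not (ch-) and 6 late libraries not sorted on the label, 3 of each line in each group. The labels of ML1 late 581, 582 and 583 contradict themselves, with late as title and time point but unengrafted as treatment. The main late counts and the late calls of named genes are therefore given both pooled and with HL60 alone. Other late values are in part given pooled only.

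Most ribosomal proteins occur once in each ribosome, and most of their mRNAs begin with a pyrimidine tract through which translation follows mTORC1 activity. Several members have other tasks, such as the stalk proteins that recruit elongation factors and the proteins that accompany the 5S rRNA.

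Levels are regularized values computed by the authors and were taken as log2, since the log10 named in the study's methods would make the highest value, 22.44, an impossible number of reads, and a fold change is a difference of group means on this scale with its standard error (SE). A gene was called when the p of the moderated t test, adjusted over all 12980 genes of the comparison, was under 0.1. Members were abundant, with means from 4.04 to 12.06 and a median of 9.59 against 6.78 for all genes tested, so that the median member stood at the 90.4 percentile. Their libraries also lay closer together within groups, with a median SD of 0.18 against 0.42 for all genes tested. These SDs, and the sizes of fold changes given below, were compared with all genes tested without matching for level. After correction for transcript length the most abundant members were Rpl10 (12.43 per kilobase), Rpl41 (12.37) and Rpl13 (11.74), and the least abundant were Rpl39l (4.6), Rps3a2 (4.62) and Rps4l (5.53).

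The mean over members was 9.35, 9.28 and 9.25 in ctrl 373, 374 and 375. Its lowest, median and highest values were 9.30, 9.45 and 9.47 in early ch-, 9.06, 9.21 and 9.36 in early ch+, and 9.07, 9.16 and 9.23 in late. Every late library thus had a lower mean over members than every ctrl library, a direction that reversed when the libraries were rescaled to equal totals, and early ch- and early ch+ overlapped. The large subunit averaged 9.43 in ctrl, 9.56 in early ch-, 9.34 in early ch+ and 9.32 in late, and the small subunit 9.11, 9.19, 9.01 and 8.95, with the same order of groups in both. Between the lines the means differed little, with 9.40 for HL60 and 9.41 for ML1 in early ch-, 9.17 and 9.24 in early ch+, and 9.16 and 9.17 in late. As a share of the summed values off the log scale, members made up 0.725%, 0.637% and 0.556% in ctrl 373, 374 and 375, between 0.576% and 0.672% in early ch-, between 0.592% and 0.677% in early ch+, and between 0.829% and 1.02% in late. The share was higher in every late library than in every other library, while the most abundant gene, an rRNA gene, took from 29.7% to 34.2% of the sum in ctrl and from 16.8% to 26.2% in late. Without this gene in the sum the share was also higher in every late library (1.11% to 1.31%) than in every other library (at most 1.05%). A higher share was not particular to members. After rescaling to equal totals, the median fold change of late minus ctrl was 0.55 over members and 0.71 over all genes tested. The abundant Col1a1, not a member, had a mean of 20.32 in ctrl and 17.40 in late.

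**Figure D1:**
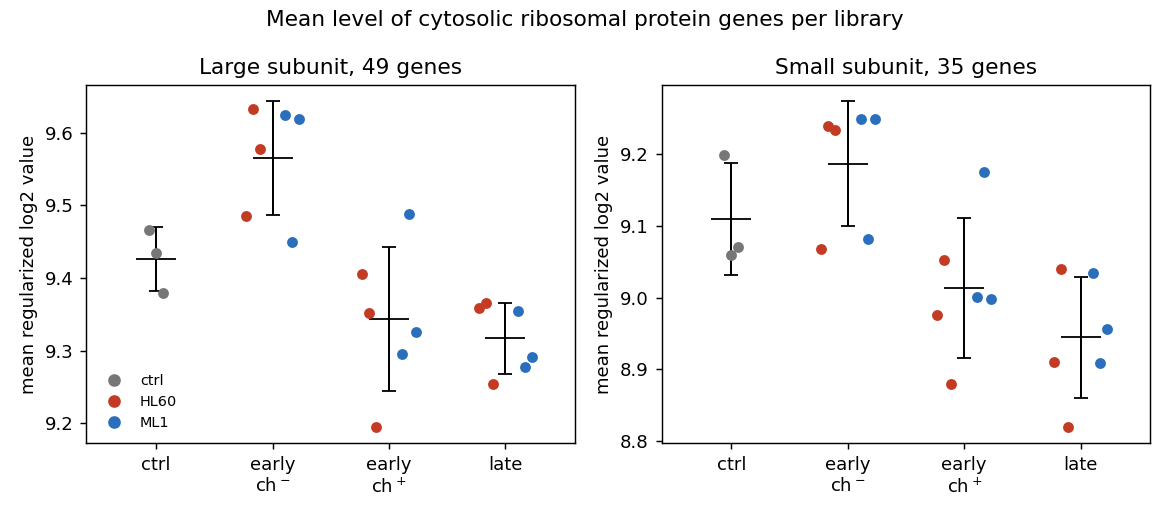
Mean regularized log2 value over the 49 large-subunit and the 35 small-subunit genes in each library, by group (x axis) and line (color), with bars for group mean ± SD. Late means lie below ctrl means on the deposited scale, and this direction reverses when libraries are rescaled to equal totals.

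Members were only in part correlated from library to library, and no such values were computed for other genes. With the mean of each group and line taken off, the median correlation over the 21 libraries between pairs of members was 0.207, and 75.7% of the 3486 pairs were above 0. With the mean of the other members, treated alike, 35 members correlated above 0.5 and 7 below 0, from Rpl37 (0.82) to Rpl34 (-0.48). The members with the largest spread of group means were Rps12l1 (SD 0.81), Rpl7l1 (0.35) and Rpl39l (0.33), and those with the smallest were Rpl19 (0.03), Rpl22 (0.04) and Rpl7a (0.05).

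In late cells few members differed from ctrl, nearly all of them lower on the deposited scale and, apart from Rps12l1, by small amounts. Of 84 members 1 was called higher and 12 lower in late than in ctrl, where 10.2% of all genes tested were called higher and 11.4% lower. An unadjusted p under 0.05 was reached by 19 members, against 27.5% of all genes tested. The members' median fold change was -0.14 (0.55 with libraries rescaled to equal totals and 0.37 with totals taken without the rRNA gene), while the all-gene median was 0.02 (0.71 and 0.53), and quantile normalization brought the member median to -0.09. After rescaling to equal totals 69 members were called higher and 1 lower, where 64.0% of all genes tested were called in either direction. Either rescaling adds the same amount to every gene of a library, so the distance of -0.16 between member median and all-gene median cannot change with it. Of the 84 fold changes 61 were negative against 48.3% of all genes, with medians of -0.14 over the large subunit and -0.15 over the small subunit. Fold changes within 0.5 of zero were found for 79 members, against 64.5% of all genes tested. Since these are bulk libraries, fewer cells of a type and less RNA per cell cannot be told apart.

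Only Rps12l1, Rpl28 and Rpl41 kept their late calls whichever library was left out. Rpl28 (ENSMUSG00000030432, chr7:4792874-4795066), a large-subunit protein without a bacterial counterpart, stood at 9.97, 9.84 and 10.00 in ctrl 373, 374 and 375 and at 8.99, 9.44 and 9.66 (lowest, median and highest) in late. All 6 late libraries lay below all 3 ctrl libraries, a difference of -0.51 ± 0.15 (SE; adjusted p = 0.0128) that became 0.18 after rescaling to equal totals and was not called with HL60 alone (-0.32, adjusted p = 0.224). Rpl41 (ENSMUSG00000093674, chr10:128548114-128549305), the smallest ribosomal protein, which sits between the subunits, stood at 11.56, 11.39 and 11.67 in ctrl and at 10.89, 11.06 and 11.20 in late. Again no late library reached a ctrl library, and the fold change was -0.47 ± 0.12 (adjusted p = 0.00704), or 0.22 after rescaling to equal totals.

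Rps12l1 (ENSMUSG00000078087, chr7:56014016-56014414) is annotated as a processed pseudogene and gave the largest fold change of any member. It stood at 6.99, 6.45 and 6.28 in ctrl 373, 374 and 375, with lowest, median and highest values of 6.21, 6.49 and 7.32 in early ch-, 5.42, 6.08 and 7.10 in early ch+, and 3.49, 5.26 and 5.98 in late. The late libraries all lay below ctrl but spread widely, and the fold change was -1.66 ± 0.46 (adjusted p = 0.011) with the same sign after each rescaling. All 399 bases of the copy occur unbroken in 2 of the 4 coding transcripts of Rps12. A coding transcript without this match, ENSMUST00000073926, has 15 further bases (capitals) in its bases 195 to 223, tagacaaGAAACCTAGGAAAAGgcgccaa, where the copy runs through in chr7:56014132-56014161 as caaagccttagacaagcgccaagcccatct. Reads within the copy can therefore not be assigned to Rps12l1 or Rps12 by sequence, and the level of either gene is uncertain. Rps12 itself had lowest, median and highest values of 7.66, 8.33 and 8.34 in ctrl and 7.82, 7.95 and 8.36 in late, which overlapped. With Rps12, Rps12l1 and 8 pseudogenes named after Rps12 summed, late minus ctrl was -0.29 ± 0.16 (adjusted p = 0.255) and was not called. The summed level was lower in late than in early ch+ on the deposited scale, with -0.39 ± 0.13 (adjusted p = 0.0426). Its mean was 8.76 in late and 9.44 in early ch+ for HL60, against 9.15 and 9.25 for ML1. In ctrl the mean was 9.25. Its value after rescaling to equal totals, which moved the member median of late minus early ch+ from -0.04 to 0.58, is not given here.

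The stalk proteins Rplp0 and Rplp1, through which the large subunit recruits elongation factors, were called lower in late. Rplp0 stood at 10.34, 10.70 and 10.53 in ctrl and at 9.70, 10.07 and 10.44 in late, which overlapped, and its fold change was -0.43 ± 0.16 (adjusted p = 0.0647; 0.26 after rescaling to equal totals). Its call ended without ctrl 374 (-0.35), ctrl 375 (-0.43), ML1 late 581 (-0.41), ML1 late 582 (-0.36) or ML1 late 583 (-0.40), with HL60 alone (-0.20), without a filter or a mean-variance trend, and after quantile normalization (-0.38). Rplp1 stood at 9.09, 9.24 and 9.13 in ctrl and at 8.55, 8.70 and 8.94 in late without overlap, with a fold change of -0.44 ± 0.17 (adjusted p = 0.0679; 0.25 after rescaling). Leaving out ctrl 373 (-0.48), ctrl 374 (-0.40), ctrl 375 (-0.45), ML1 late 581 (-0.42), ML1 late 582 (-0.41) or ML1 late 583 (-0.44) ended its call, as did HL60 alone (-0.35), quantile normalization (-0.38) and the correction for length and GC content (-0.31). The remaining stalk gene, Rplp2, was not called in this comparison.

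Some small-subunit members were also called lower in late. Rps26 (ENSMUSG00000025362, chr10:128624534-128626747), which touches mRNA upstream of the start codon, stood at 9.89, 9.81 and 9.66 in ctrl and at 9.07, 9.30 and 9.62 in late. No late library reached ctrl, the fold change was -0.45 ± 0.15 (adjusted p = 0.0397; 0.24 after rescaling to equal totals), and the call ended without ctrl 373 (-0.40) or ctrl 374 (-0.44) and with HL60 alone (-0.28). Rps15, whose tail reaches the decoding site, stood at 10.58, 10.26 and 10.38 in ctrl and at 9.87, 10.02 and 10.10 in late. These did not overlap either, and the fold change of -0.40 ± 0.13 (adjusted p = 0.0291; 0.29 after rescaling) lost its call without ctrl 373 (-0.32) and after correction for length and GC content (-0.26, adjusted p = 0.164). Rps27a, which is made as a fusion to ubiquitin, stood at 8.80, 8.81 and 9.13 in ctrl and at 8.31, 8.45 and 8.74 in late. Here too the groups were apart, by -0.44 ± 0.16 (adjusted p = 0.0679; 0.26 after rescaling), and the call ended without ctrl 375 (-0.33), ML1 late 581 (-0.43), ML1 late 583 (-0.43) or HL60 late 399 (-0.40), with HL60 alone (-0.50), with ML1 alone (-0.37) and after quantile normalization (-0.37).

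Large-subunit members outside the stalk were also called, of which Rpl14, like Rps15 above, is named only because it was called. Rpl14 was lower by -0.35 ± 0.13 (adjusted p = 0.0727; 0.35 after rescaling to equal totals), a call that ended without ctrl 373 (-0.33), ctrl 374 (-0.28), ML1 late 582 (-0.34), HL60 late 397 (-0.32) or HL60 late 399 (-0.34), with HL60 alone (-0.38), with ML1 alone (-0.32), without a mean-variance trend and after quantile normalization (-0.29). The only member called higher was Rpl9, at the base of the stalk, with 0.35 ± 0.15 (adjusted p = 0.0997). Its values of 10.27, 9.94 and 10.02 in ctrl overlapped those of 10.06, 10.45 and 10.77 in late, and the call ended without ctrl 374 (0.28), ctrl 375 (0.33), ML1 late 581 (0.32), ML1 late 582 (0.29), ML1 late 583 (0.34) or HL60 late 397 (0.35) and with HL60 alone (0.17). It also ended without a filter or a mean-variance trend, with array weights, with the compared groups alone and with pseudogene copies summed with their parent genes (0.30).

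The number of late calls depended on single libraries. It was 13 with all libraries, 7 without ctrl 373 and 5 without ctrl 374. It was 8 without ML1 late 581, 7 without ML1 late 582 and 8 without ML1 late 583. Of all genes tested 21.5% were called with all libraries. In these omissions, in the same order, 18.6%, 17.3%, 18.8%, 18.5% and 18.7% were. Over all omissions the members' median fold change nevertheless stayed between -0.16 and -0.11.

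By line, late minus ctrl gave 0 members higher and 4 lower for HL60, where 13.7% of all genes tested were called in either direction, and 1 higher and 12 lower for ML1, where 22% were. The medians were -0.15 for HL60 and -0.13 for ML1. With HL60 alone the members called lower were Rps12l1 at -1.65 (adjusted p = 0.0461), Rpl41 at -0.46 (adjusted p = 0.0252), Rps3 at -0.41 (adjusted p = 0.0873) and Rps15 at -0.39 (adjusted p = 0.0964). In ML1 the smallest adjusted p was that of Rpl28 (-0.71, adjusted p = 0.00117), followed by Rplp0 (-0.67, adjusted p = 0.00303). A direct test of HL60 against ML1 in late called 0 members, where 4.1% of all genes tested were called, and 8 members had an unadjusted p under 0.05 against 10.9% of all genes. It called 7 members after rescaling to equal totals, where 5.44% of all genes tested were called, and 5 with array weights, where 9.12% were. The smallest adjusted p in the main fit of that test was 0.113 for Rps3 (-0.46). In that fit the longer list of ML1 thus does not show a difference between the lines. Members were also called with totals taken without the rRNA gene (3) and with the compared groups alone (2). The shares of all genes called in those fits are not given here, beside 4.1% in the main fit.

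**Figure D2:**
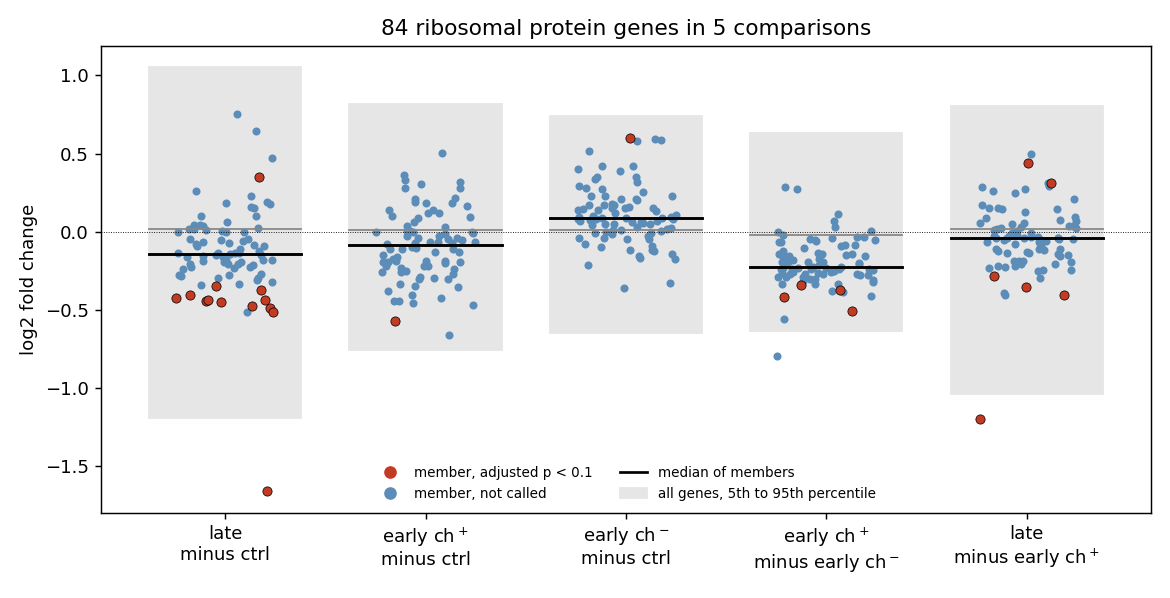
Log2 fold changes (y axis) of the 84 members in 5 comparisons (x axis), red when the adjusted p was under 0.1, with black lines at the member median, grey lines at the all-gene median and grey boxes from the 5th to the 95th percentile of all genes tested. Most members lie below zero in early ch+ against early ch-, and the member medians of late against ctrl and against early ch+ change sign when libraries are rescaled to equal totals.

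Among early cells the labelled fraction had lower values of most members than the unlabelled fraction. The study sorted both fractions from the same marrow, but no label ties a ch+ library to a ch- library, and the fit was unpaired. In early ch+ minus early ch- 0 members were called higher and 4 lower, where 3.57% of all genes tested were called higher and 2.67% lower. The fold change was negative for 77 of 84 members against 52.5% of all genes, and the median was -0.23 against -0.02, or -0.07 after rescaling to equal totals. It was negative for 46 of 49 large-subunit members (median -0.23) and for 31 of 35 small-subunit members (median -0.19). An unadjusted p under 0.05 was reached by 25 members, against 15.4% of all genes tested. Fold changes within 0.5 of zero were found for 81 members, against 83.6% of all genes.

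Rplp2 (ENSMUSG00000025508, chr7:141447370-141451585), the partner of Rplp1 in the stalk, stood at 9.78, 10.05 and 10.23 (lowest, median and highest) in early ch- and at 9.42, 9.45 and 9.91 in early ch+, against 9.80, 10.26 and 9.85 in ctrl. Most ch+ libraries lay below the ch- range and 1 lay inside it. The fold change was -0.51 ± 0.12 (adjusted p = 0.007) and stayed called in each omission, but not with HL60 alone (-0.44, adjusted p = 0.193). Rpl28 ranged from 9.69 to 9.86 in early ch- and from 9.17 to 9.56 in early ch+, without overlap. Its fold change was -0.42 ± 0.12 (adjusted p = 0.0353) and was called in each omission. It was not called after rescaling to equal totals (-0.27, adjusted p = 0.217), with HL60 alone (-0.43, adjusted p = 0.183) or with ML1 alone (-0.41, adjusted p = 0.193). Rps16 (ENSMUSG00000037563, chr7:28350652-28353155), whose tail contacts the initiator tRNA, stood at 8.86, 9.09 and 9.14 in early ch- and at 8.48, 8.68 and 8.86 in early ch+. The groups overlapped, and the fold change of -0.37 (adjusted p = 0.0639) lost its call without ch+ 523 (-0.33) or ch+ 525 (-0.36), and without ch- 528, 529, 544 or 546. The call also ended after rescaling to equal totals (-0.22) or to totals without the rRNA gene (-0.33), with the compared groups alone, with HL60 alone (-0.40) and with ML1 alone (-0.34).

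After rescaling to equal totals 1 member was called, where 8.24% of all genes tested were, with totals taken without the rRNA gene 2 were, where 6.13% were, and after quantile normalization 9 were, where 6.41% were. On the deposited scale the count of 4 was 2 without ch+ 525, ch- 528, ch- 529 or ch- 546 and 7 without ch- 527. Of all genes tested 6.23%, 5.21%, 5.89%, 6.36% and 5.72% were called in these fits, in the same order. In HL60 alone 0 members were called higher and 3 lower, where 3.92% of all genes tested were called, and in ML1 0 higher and 2 lower, where 4.25% were. The HL60 calls included Rpl10a (-0.53, adjusted p = 0.0502) and Rps4x (-0.53), and the ML1 calls were Rplp2 (-0.58, adjusted p = 0.0431) and Rpl11 (-0.46, adjusted p = 0.0596), with Rpl10a named only because it was called. Negative fold changes were found for 77 members in HL60 and 67 in ML1, with medians of -0.23 and -0.15. The test of whether the ch+ to ch- difference itself differed between the lines called 0 members, where 0.0077% of all genes tested were called, and 4 members had an unadjusted p under 0.05 against 6.39% of all genes.

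Neither early fraction had more than 1 member called against ctrl. In early ch+ minus ctrl 0 members were called higher and 1 lower, where 3.41% of all genes tested were called higher and 2.75% lower, and 10 members reached an unadjusted p under 0.05 against 16.8% of all genes. The members' median was -0.09, with 58 of 84 fold changes negative against 48.9% of all genes. This median was -0.0105 after rescaling to equal totals, -0.13 after correction for length and GC content, -0.15 without ctrl 374, -0.05 without ch+ 525 and -0.13 without ch+ 539. The member called was Rpl28, at -0.57 ± 0.15 (adjusted p = 0.0195), with all 6 ch+ libraries below all 3 ctrl libraries and the call kept in each omission. The count was 3 without ctrl 375, 2 without ch+ 523, 4 without ch+ 539 and 2 without ch+ 541. It reached 4 after correction for length and GC content. Of all genes tested 4.88%, 5.97%, 5.26%, 6.12% and 6.225% were called in these fits, in the same order. By line, HL60 had 0 higher and 4 lower, where 5.33% of all genes tested were called, and ML1 0 higher and 1 lower, where 6.69% were. The HL60 calls were Rpl28 (-0.63, adjusted p = 0.0164), Rps4x (-0.60, adjusted p = 0.0399), Rplp0 (-0.53) and Rpl23 (-0.57, named only because it was called), and the ML1 call was Rpl28 (-0.51, adjusted p = 0.0534). HL60 against ML1 in early ch+ called 0 members, where 0.0154% of all genes tested were called, and 6 members had an unadjusted p under 0.05 against 7.61% of all genes. Rps4x, the X-linked form of Rps4, stood at 10.46, 10.75 and 10.70 in the HL60 ch+ libraries and gave -0.54 against ML1 (adjusted p = 0.53).

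In early ch- the small shift went the other way. In early ch- minus ctrl 1 member was called higher and 0 lower, where 1.13% of all genes tested were called higher and 0.786% lower, and 13 members reached an unadjusted p under 0.05 against 11.9% of all genes. Negative fold changes were found for 22 of 84 members against 48.8% of all genes, with a member median of 0.09 (0.0132 after rescaling to equal totals). Rpl9 (ENSMUSG00000047215, chr5:65388364-65391444) stood at 10.27, 9.94 and 10.02 in ctrl and at 10.33, 10.74 and 10.79 in early ch-. All ch- libraries lay above all ctrl libraries, and the fold change was 0.60 ± 0.15 (adjusted p = 0.0339). The call ended, and the count became 0, without ctrl 374 (0.53) or ctrl 375 (0.57), after rescaling to equal totals (0.52) and without a mean-variance trend, while without a filter 3 members were called. Rpl9 was also the only member called in each line, with 0.65 in HL60 (adjusted p = 0.0253), where 1.57% of all genes tested were called, and 0.55 in ML1 (adjusted p = 0.0705), where 2.34% were. HL60 against ML1 in early ch- called 0 members, where 0.0539% of all genes tested were called, and 0 members had an unadjusted p under 0.05 against 6.83% of all genes. These comparisons and the late comparison share the same 3 ctrl libraries.

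**Figure D3:**
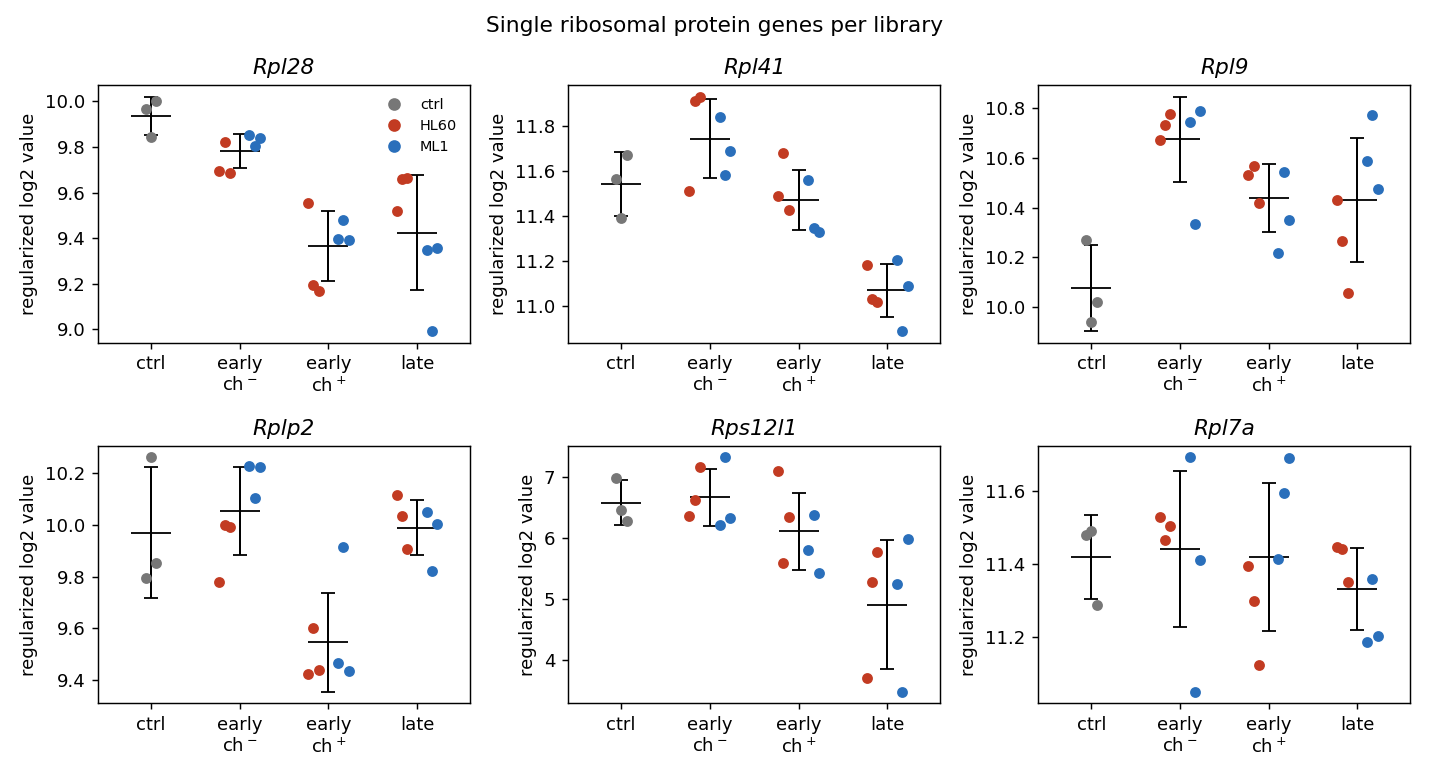
Regularized log2 values (y axis) of Rpl28, Rpl41, Rpl9, Rplp2, Rps12l1 and Rpl7a in each library by group (x axis) and line (color), with bars for group mean ± SD. Rpl7a is shown as a steady member, and the differences of Rpl28 and Rpl41 between late and ctrl change sign when libraries are rescaled to equal totals.

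Between late cells and early ch+ cells 6 members were called on the deposited scale. In late minus early ch+ 2 members were called higher and 4 lower, where 8.78% of all genes tested were called higher and 10.9% lower. After rescaling to equal totals 79 members were called, all higher, where 69.6% of all genes tested were called, and with totals taken without the rRNA gene 68 were, where 57.4% were. The median was -0.04 (0.58 after rescaling to equal totals, 0.45 with totals taken without the rRNA gene and 0.03 after correction for length and GC content), and 53 of 84 fold changes were negative. It was -0.0058 after quantile normalization, -0.0083 without HL60 late 399, -0.0105 without ch+ 539 and -0.07 without ch+ 525. Rpl41 was lower in late than in early ch+ (11.33 to 11.68) without overlap, at -0.40 ± 0.10 (adjusted p = 0.00468; 0.21 after rescaling). Rps25 (ENSMUSG00000009927, chr9:44407139-44410427), needed for initiation on some viral and cellular internal sites, stood at 10.30, 10.45 and 10.55 in early ch+ and at 9.93, 10.13 and 10.31 in late, with 10.29, 10.24 and 10.20 in ctrl. The groups overlapped slightly, and the fold change was -0.35 ± 0.10 (adjusted p = 0.011; 0.27 after rescaling). Rplp2 was higher in late, where it ranged from 9.82 to 10.12, with overlap and a fold change of 0.44 ± 0.12 (adjusted p = 0.00795). Rpl13 (ENSMUSG00000000740, chr8:123102350-123105244) stood at 11.08, 11.16 and 11.43 in early ch+ and at 11.42, 11.51 and 11.62 in late. The ranges barely overlapped, with a fold change of 0.31 ± 0.10 (adjusted p = 0.0316). Rps12l1 was lower in late at -1.19 ± 0.38 (adjusted p = 0.0266), with the uncertainty given above, and was not called with HL60 alone (-1.42), with ML1 alone (-0.97), after rescaling to equal totals (-0.58) or to totals without the rRNA gene (-0.71). Rpl31, near the exit of the peptide tunnel, was lower at -0.29 (adjusted p = 0.0656; 0.33 after rescaling), a call that ended without ML1 late 582 or 583, HL60 late 399 (-0.24), HL60 ch+ 523, 524 or 525 or ML1 ch+ 541, with HL60 alone (-0.34) or ML1 alone (-0.23), without a mean-variance trend, after quantile normalization (-0.24) and after correction for length and GC content (-0.19). In HL60 alone Rplp2 (0.53), Rpl13 (0.43) and Rps25 (-0.43) stayed called, but in ML1 alone Rplp2 (0.35), Rpl13 (0.19) and Rps25 (-0.27) were not. Rpl13 was not called without a mean-variance trend. By line 3 members were higher and 4 lower in HL60, where 10.2% of all genes tested were called, and 0 higher and 3 lower in ML1, where 16.9% were. Rpl41 was called in both lines, at -0.46 in HL60 and -0.35 in ML1, and Rps4x was higher in HL60 late at 0.67 (adjusted p = 0.0103).

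Of the members chosen for their roles, Rplp0, Rplp1, Rplp2 and Rps27a were called as given above, and those described next were not called in any comparison of pooled lines. Rpl5 and Rpl11, which bind the 5S rRNA and Mdm2, stood at 7.61, 7.89 and 7.97 and at 10.56, 10.30 and 10.56 in ctrl, and late minus ctrl of Rpl11 was -0.27 (adjusted p = 0.15). Rps6, the substrate of the S6 kinases, stood at 10.14, 10.48 and 10.18 in ctrl and at 9.66, 10.14 and 10.24 in late with overlap. Rps19, which serves in rRNA processing, stood at 8.58, 9.01 and 9.18 in early ch- and at 8.34, 8.55 and 8.86 in early ch+, and its fold change of -0.38 was not called (adjusted p = 0.113). Rps14, another processing factor, was 0.39 higher in early ch- than in ctrl without a call (adjusted p = 0.246). Rpl10, the last protein to join the large subunit and the most abundant member per kilobase, stood at 12.21, 12.10 and 11.96 in ctrl and at 11.62, 11.79 and 11.94 in late. Its late values all lay below ctrl, by -0.30 (adjusted p = 0.135), and the gene was called in ML1 alone at -0.42 (adjusted p = 0.0151).

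Paralogues were less abundant than their partners and were not called in the comparisons of pooled lines. Rpl39l, 85.1% identical to Rpl39 over their alignment, stood at 3.61, 3.54 and 3.38 in ctrl and at 3.94, 4.24 and 4.66 in late, a difference of 0.76 ± 0.35 (adjusted p = 0.158). Every late value lay above ctrl at a level close to the one required for testing, while Rpl39 stood at 9.40, 9.53 and 9.40 in ctrl. Rpl22l1 (75.9% identical to Rpl22) ranged from 7.74 to 8.92 in early ch- against 7.59, 7.45 and 7.78 in ctrl, a difference of 0.58 ± 0.23 (adjusted p = 0.283). Rpl7l1 (72.9% identical to Rpl7 over 70 aligned bases) ranged from 5.48 to 6.80 in early ch- and from 4.17 to 6.53 in early ch+, at -0.80 ± 0.31 (adjusted p = 0.176). These ranges overlapped widely. Rps27l (79.0% identical to Rps27) stood at 7.06, 7.09 and 5.94 in ctrl, so that ctrl 375 lay far below the other ctrl libraries. The processed pseudogene Rps3a2 is identical to Rps3a1 in 788 of 792 bases, so that only reads over the 4 differing bases can be assigned by sequence.

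Start sequences were examined for 61 members with an annotated RefSeq start, with motifs chosen after the sequences and values had been seen. CTTTC in the 30 bases around the start (10 before it) occurred on the sense strand for 15 of 61 members (24.6%) against 4.43% of all 27025 genes with a window. On the opposite strand it occurred for 3 of 61 (4.92%) against 4.31%. It was present in 3 of the 12 members with a window that were called in a comparison of pooled lines. Rpl28 has it in chr7:4792955-4792984 (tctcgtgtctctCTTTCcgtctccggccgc), and Rplp2 in chr7:141447641-141447670 (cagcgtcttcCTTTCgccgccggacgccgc). The steady Rpl7a also has it, in chr2:26910797-26910826 (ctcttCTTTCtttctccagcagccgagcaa). CTTTC is absent from the window of Rpl41 in chr10:128549149-128549178 (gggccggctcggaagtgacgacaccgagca) and of Rpl9 in chr5:65391412-65391441 (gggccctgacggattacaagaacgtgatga). CGGAAG, the core of an Ets-type site, occurred on either strand within 250 bases before to 50 after the start for 42 of 61 members (68.9%) against 18.8% of all genes, and for 7 of the 12 called members.

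Genes that act beside the ribosomal proteins were counted in the same fits. In late minus ctrl 10.2% of all genes tested were called higher and 11.4% lower. With HL60 alone 13.7% were called in either direction. In early ch+ minus early ch- 3.57% were called higher and 2.67% lower. Of 24 other mRNAs of translation elongation and the pyrimidine-tract class 0 were higher and 2 lower in late than in ctrl, Eef1a1 at -0.38 ± 0.11 (adjusted p = 0.0164) and Rack1 at -0.35 (adjusted p = 0.0413), which became 0.32 and 0.34 after rescaling to equal totals and stayed called with HL60 alone (-0.29 and -0.39), while quantile normalization ended the call of Eef1a1 and ML1 alone, a fit without a mean-variance trend and the omission of ctrl 373 or ctrl 375 that of Rack1. Of 64 ribosome biogenesis genes 9 were higher and 0 lower (2 and 0 with HL60 alone), with a median of 0.14, led by Nop16 at 1.46 ± 0.36 (adjusted p = 0.0044; 1.42 with HL60 alone), and in early ch+ minus early ch- Nmd3 alone was higher at 0.87 ± 0.22 (adjusted p = 0.0147), though not with ML1 alone. Of 37 initiation factors 1 was higher in late (Eif6, 0.88, not called with HL60 alone, without ctrl 375 or without a filter) and 1 lower (Eif4g1, -0.34, or 0.36 after rescaling). Eif4g1 was also called with HL60 alone (-0.41) but lost the call in 16 of 23 alternatives. Of 28 genes of mTORC1 and Myc signaling 4 were higher and 4 lower in late (3 and 1 with HL60 alone), among them Deptor at 1.78 ± 0.31 (adjusted p = 0.000104; 1.71 with HL60 alone) and Eef2k at -1.45 (adjusted p = 0.00536; not called with HL60 alone). Of 14 integrated stress response genes 0 were higher and 4 lower (0 and 3 with HL60 alone), led by Psat1 at -1.64 (adjusted p = 0.000115; -1.54 with HL60 alone). Of 77 mitochondrial ribosomal protein genes 3 were higher and 2 lower (0 and 1 with HL60 alone).

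Marker genes of cell types were read beside these results, and their part in the result was not tested. The shares of all genes tested that were called are those given above for each comparison. Of 12 niche genes of mesenchymal cells 9 were higher and 1 lower in late than in ctrl (9 and 0 with HL60 alone). Against ctrl 7 were higher in early ch+ and 1 in early ch-, and 2 were higher and 0 lower in early ch+ than in early ch-. Their summed level was 16.62, 16.20 and 16.25 in ctrl and from 17.23 to 17.55 in late. It was 16.05 to 16.95 in early ch- and 16.82 to 17.25 in early ch+. Cxcl12 was the most abundant, and none was under the tested level in any group. Of 11 blood genes 0 were higher and 3 lower in late (1 with HL60 alone), 11 were higher in early ch+ and 10 in early ch- than in ctrl and 0 differed between the early fractions, with sums of 9.0, 8.25 and 9.39 in ctrl, 10.78 to 11.80 in early ch-, 10.35 to 11.64 in early ch+ and 7.18 to 8.21 in late, Lyz2 highest, and 9 of 15 in ctrl and 12 of 15 in late under the tested level. Of 10 red cell genes 5 were lower in late (4 with HL60 alone), 9 were higher in early ch+ and 8 in early ch- than in ctrl and 0 differed between the early fractions, with sums of 8.59, 8.97 and 9.55 in ctrl, 12.36 to 13.35 in early ch-, 12.13 to 13.68 in early ch+ and 6.85 to 7.34 in late, Hbb-bs highest, and 4 of 11 in ctrl and 6 of 11 in late under the tested level. Of 7 endothelial genes 0 were higher and 1 lower in late (0 with HL60 alone), at sums of 8.26, 8.38 and 8.66 in ctrl and 7.94 to 8.71 in late, with Tie1 under the tested level and Cdh5 highest in ctrl. Of 6 skeletal muscle genes all 6 were higher in early ch+ than in ctrl, 1 was higher in early ch- and 1 lower in late (1 with HL60 alone), at sums of 7.32, 6.39 and 6.28 in ctrl, 6.81 to 8.83 in early ch-, 7.61 to 9.51 in early ch+ and 5.83 to 6.05 in late, Acta1 highest in ctrl, and 7 of 12 in ctrl and 12 of 12 in late under the tested level.

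Matrix and contractile genes were often called lower in late and, for chondrocyte and smooth muscle genes, in early ch+. All 13 chondrocyte genes were lower in late than in ctrl (13 with HL60 alone) and 11 were lower in early ch+ than in early ch-, at sums of 17.82, 17.02 and 17.31 in ctrl, 16.45 to 17.15 in early ch-, 15.45 to 16.19 in early ch+ and 12.48 to 15.03 in late, with Col2a1 highest in ctrl and 1 of 14 genes under the tested level in early ch+ and in late. Of 10 smooth muscle genes 5 were lower in late than in ctrl (4 with HL60 alone) and 7 lower in early ch+ than in early ch-, at sums of 14.22, 14.89 and 13.77 in ctrl, 13.25 to 14.12 in early ch-, 12.01 to 12.78 in early ch+ and 12.62 to 13.42 in late, Myh11 highest in ctrl and none under the tested level. Of 10 osteoblast genes 1 was higher and 8 lower in late than in ctrl (1 and 7 with HL60 alone), at sums of 20.26, 20.41 and 20.71 in ctrl, 18.62 to 19.01 in HL60 late and 16.36 to 17.04 in ML1 late, Col1a1 highest and none under the tested level. Whether the lower members came with such a shift of cell types was not tested.

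The libraries are bulk samples of sorted cells, 3 per line and group, and the numbers of cells behind them are not given. The deposited values place all libraries on a scale set over all genes, so a change of total mRNA per cell cannot be seen, and the late directions of the member medians and of many single members depend on that scale. Protein, ribosome number and translation were not measured.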

How the data were processed

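RNA of 21 libraries was sequenced by the authors, 1 library per column, with 0 value columns left unused. Per the submitters' notes reads were aligned to mm10 with STAR 2.5.1b, counted per Ensembl gene with RSEM 1.2.29 and processed with DESeq2 1.10.1. The deposited table holds regularized log2 values (-2.33 to 22.44) made by the authors, although it is described as normalized counts, and no count test was possible. The table holds no counts and the study names only a typical yield, so the depth of each library and the precision it gives cannot be stated. Genes with a mean of at least 3.3 were fitted with limma 3.58.1 in R 4.3.3 (empirical Bayes with a mean-variance trend), once with 4 groups and once with 7 groups by line, and p-values were adjusted by Benjamini-Hochberg within each comparison. These p-values measure the spread between libraries. The pipeline was tested on simulated data. Summaries used Python 3.11.15, pandas 2.3.3 and numpy 2.4.6, and figures matplotlib 3.10.9. Annotation was GENCODE M21 (GRCm38), and start windows were RefSeq on GRCm38.p6. The copies were aligned with every coding transcript of their partner genes and the best match was kept.

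Members and lists were chosen with earlier results of these data known. Named members were, besides those with stated roles and paralogues, up to 5 called members per direction and comparison and the 3 at each extreme of level and spread, and other names are stated as chosen after their values were seen. Alternatives were other filters, scalings, weights and thresholds, a length and GC correction, the lines apart, the compared groups alone and each library left out, and 1 alternative, pseudogene copies summed with their parent genes, was chosen after seeing the data. Protein sequences were not used here, and some members that enter the counts are not reported here singly.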

Additional observations from a re-analysis of the deposited data

Results flagged for a closer look

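A library was marked when it lay far from the others of its group of 6 (by Dixon's criterion on the gap to the nearest library), which happened in 4 of 123 groups tested, and chance flags about 1 group in 20. In ML1 early ch- 544 members made up 0.576% of the summed values, the lowest of early ch-. Rpl9 had its lowest early ch- value, 10.33, in the same library. Rplp2 had its highest early ch+ value, 9.91, in ML1 early ch+ 539. The pseudogene Rps3a2 had its highest late value, 4.75, in HL60 late 398. None of the 37 named members was called in the test of a difference between the lines.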

How the results depend on the processing

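With libraries rescaled to equal totals, 70 members were called in late minus ctrl (median 0.55), 79 in late minus early ch+ (0.58), 1 in early ch+ minus early ch- (-0.075), 0 in early ch- minus ctrl and 7 in late HL60 minus ML1 (-0.25), and the early ch- median of HL60 minus ML1 was 0.10. Of all genes 64.0% were then called in late minus ctrl and 69.6% in late minus early ch+, with all-gene medians of 0.71 and 0.63. With totals taken without the rRNA gene the counts were 46 in late minus ctrl (median 0.37), 68 in late minus early ch+ (0.45), 2 in early ch+ minus early ch- and 3 in late HL60 minus ML1 (-0.16), with 49.1% and 57.4% of all genes called in the comparisons of late with ctrl and with early ch+.

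Some late results changed sign under these rescalings, and the cause was not tested. In late minus ctrl, with equal totals and then without the rRNA gene, Rplp1 was 0.25 and 0.070, Rps27a 0.26 and 0.076, Rps26 0.24 and 0.0625, Rpl14 0.35 and 0.17, Rps15 0.29 and 0.11, Rplp0 0.26 and 0.077, and Rpl41 0.22 and 0.041, while Rpl28 was 0.18 with equal totals only. Among genes of other lists Eif4ebp2 was 0.23 and 0.049, Rack1 0.34 and 0.16, Pdgfra 0.32 and 0.13, Eef1a1 0.32 and 0.13, and Eif4g1 0.36 and 0.17. In late minus early ch+ Rps25 was 0.27 and 0.14, Rpl31 0.33 and 0.20, Rpl41 0.21 and 0.084, Pdgfra 0.25 and 0.12, Mxd4 0.22 and 0.088, and Eif4g1 0.29 and 0.16.

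Counts of called members also moved under other choices, for which the cause was not tested. Without a mean-variance trend 8 were called in late minus ctrl (20.7% of all genes tested) and 0 in early ch- minus ctrl. At an adjusted p under 0.05 the counts were 6 in late minus ctrl (16.3% of all genes) and 2 in early ch+ minus early ch-. With HL60 alone 4 were called in late minus ctrl (13.7% of all genes) and 4 in early ch+ minus ctrl (5.33%, member median -0.18). With ML1 alone there were 2 in early ch+ minus early ch- (4.25%) and 3 in late minus early ch+ (16.9%). Without a filter there were 2 in early ch+ minus ctrl (2.21% of all genes) and 3 in early ch- minus ctrl (0.689%). With a filter at 5 there were 3 (6.79%), 2 (2.15%) and, in late HL60 minus ML1, 1. Quantile normalization gave 2 in early ch+ minus ctrl (5.99% of all genes) and 2 in early ch- minus ctrl. In early ch+ minus early ch- it gave 9. Early ch+ minus ctrl had 3 with libraries centred on the all-gene median (6.19% of all genes) and 4 after length and GC correction (6.225%). In late HL60 minus ML1 there was 1 in each. Array weights gave 5 in late HL60 minus ML1, and the compared groups alone gave 2 there and 2 in early ch+ minus early ch- (6.66% of all genes). For late HL60 minus ML1, all-gene shares are given above only for equal totals, array weights and the main fit (4.1%).

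When single libraries were omitted, the members called ranged from 5 to 14 in late minus ctrl and from 1 to 4 in early ch+ minus ctrl. They ranged from 0 to 1 in early ch- minus ctrl and from 2 to 7 in early ch+ minus early ch-. Over these omissions 17.0% to 20.9% of all genes tested were called in late minus ctrl. For early ch+ minus ctrl this was 4.18% to 6.12%. It was 1.05% to 2.16% for early ch- minus ctrl and 5.21% to 6.36% for early ch+ minus early ch-. Of 21 called member results reported singly Rpl28 in early ch+ minus ctrl kept call and direction in every alternative, and Rps12l1 in late minus ctrl in all but the summing of copies, where it has no value of its own and the summed gene was not called. Of 508 alternatives 120 did not give the call in its direction, 21 of these with the opposite sign, some of them called. Of 121 called results of list genes 70 were kept throughout. Summing pseudogene copies with their parent genes, chosen after seeing the data, moved no count by more than 1.5 times. No paired analysis was made because no label ties a ch+ library to the ch- library of its mouse.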
